A study of Mus musculus with 10 samples.

Results

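RNA sequencing of sorted mouse lung endothelial cells was examined for 10 genes of BMP and TGF-beta signalling: the receptors Acvrl1, Tgfbr1, Bmpr2 and Tgfbr2, the co-receptors Eng and Tgfbr3, the inhibitory Smads Smad6 and Smad7, and the target genes Id1 and Id3. They were chosen by symbol as 10 of the 55385 gene identifiers in the deposited count table, and all 10 were among the 17997 genes with enough counts to be tested. The group labelled EC-TRAIL KO (n = 5 libraries) was Tnfsf10 L/L and carried Cdh5.Cre as Tg/W, that is, loxP sites in both copies of Tnfsf10, which encodes the death ligand TRAIL, and a tamoxifen-inducible Cre recombinase under the promoter of the endothelial gene Cdh5. The Control group (n = 5 libraries) was likewise Tnfsf10 L/L but W/W for Cdh5.Cre, and so carried the same loxP alleles without Cre. The strain of both groups is given as Cdh5.iCreERT2xTnfsf10Lox/Lox, and the animals were 8 to 14 weeks old. The protocol attached to every library gives 1 mg of tamoxifen per mouse and day for 5 or 10 days, without saying which library had which course. Cre is present in one group only, so its own effect and that of the deletion cannot be told apart. The study's design text counts 4 Tg/W animals beside 5 W/W, whereas the labels and the table hold 5 libraries of each, so the origin of 1 of the 5 EC-TRAIL KO libraries is uncertain. The labels do not state that each library came from its own animal, so each p-value refers to variation among libraries, which may be technical.

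Ligands of this family bind pairs of type I and type II receptor kinases at the cell surface, and the activated type I receptor phosphorylates receptor-regulated Smad proteins, which enter the nucleus with Smad4. In endothelium the type I receptor ALK1, encoded by Acvrl1, acts with BMPR2 and the co-receptor endoglin on circulating BMP9 and BMP10, while TGFBR1 (ALK5) and TGFBR2 carry the TGF-beta signal. Id1 and Id3 are direct targets of the BMP branch, and Smad6 and Smad7 are induced by the pathway and inhibit it, so their RNA is commonly read as a measure of its activity. In humans, loss-of-function variants of ACVRL1 and ENG cause hereditary haemorrhagic telangiectasia, and those of BMPR2 cause heritable pulmonary arterial hypertension.

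Library totals ran from 29806083 to 34702571 expected counts in EC-TRAIL KO libraries and from 34435835 to 56897822 in Control libraries. Tnfsf10 itself had 199, 318, 126, 169 and 81.0 CPM (counts scaled to a common library size) in EC-TRAIL KO replicates 1 to 5, against 374, 370, 298, 323 and 305 CPM in Control replicates 1 to 5. The log2 fold change was -0.90 (SE 0.276), which did not pass the same edgeR test as used below (adjusted p = 0.425; exact two-sided permutation p = 0.0238, unadjusted). The library labelled EC-TRAIL KO replicate 2 stood inside the Control range for the targeted gene, and values without it are given below where it changes a direction or moves a value by over 1.5 times. Endothelial markers were high throughout, with Cdh5 at 3784 to 4146 CPM in EC-TRAIL KO and 3511 to 4181 CPM in Control libraries, and the sum of 8 endothelial markers ran from 9824 to 11570 CPM and from 9902 to 11590 CPM. Single markers leaned either way. Tek ran from 910 to 1094 CPM in EC-TRAIL KO and from 1089 to 1322 CPM in Control libraries, and Pecam1 from 2201 to 2605 CPM and from 1924 to 2384 CPM. The edgeR test called 0 of the 8. RNA of other cells was present as well. The 8 alveolar epithelial markers summed to 6411 to 9260 CPM in EC-TRAIL KO and 7651 to 11640 CPM in Control libraries, the 8 fibroblast markers to 471 to 783 CPM and 552 to 761 CPM, the 8 pericyte and smooth muscle markers to 365 to 628 CPM and 487 to 654 CPM, and the 8 leukocyte markers to 1071 to 1577 CPM and 1267 to 1918 CPM. Of this leukocyte sum, Lyz2 alone gave 1001 to 1493 CPM and 1182 to 1827 CPM. No marker was at 0 in every library, although the pan-leukocyte gene Ptprc reached only 2.28 to 4.65 CPM in EC-TRAIL KO and 1.603 to 4.51 CPM in Control libraries. EC-TRAIL KO replicate 2 had the lowest sum of all 10 libraries in each of the 4 lists of other cell types. The part of these cells in the results below was not tested. Most of the receptors are also expressed outside endothelium, and in bulk RNA fewer cells of a type and less RNA per cell cannot be told apart.

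Promoter sequence was examined for 6 of the 10 genes (Bmpr2, Eng, Id3, Smad6, Tgfbr1 and Tgfbr2). Smad7 was left out of this search. The windows are those of RefSeq on GRCm38.p6, from 250 bases before to 50 bases after the annotated start. Those of Id3 and Bmpr2, and the second of Tgfbr1, begin after the gene start given below and lie inside the gene. The windows of Id3 and Smad6 are shown because these 2 are the pathway-induced genes among the 6. Capitals mark the core letters bound by Smad3 and Smad4, GTCT or its reverse complement AGAC, and the GC-rich letters GGAGCC or GGCTCC described at BMP-responsive genes, each searched on both strands.
Id3, chr4:136143572-136143871, plus strand: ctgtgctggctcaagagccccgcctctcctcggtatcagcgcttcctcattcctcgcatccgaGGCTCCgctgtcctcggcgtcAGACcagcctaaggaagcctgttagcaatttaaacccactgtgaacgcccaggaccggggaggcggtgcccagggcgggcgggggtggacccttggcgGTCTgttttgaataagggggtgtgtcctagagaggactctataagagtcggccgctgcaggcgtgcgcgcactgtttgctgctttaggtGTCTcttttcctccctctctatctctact
Smad6, chr9:64022010-64022309, minus strand: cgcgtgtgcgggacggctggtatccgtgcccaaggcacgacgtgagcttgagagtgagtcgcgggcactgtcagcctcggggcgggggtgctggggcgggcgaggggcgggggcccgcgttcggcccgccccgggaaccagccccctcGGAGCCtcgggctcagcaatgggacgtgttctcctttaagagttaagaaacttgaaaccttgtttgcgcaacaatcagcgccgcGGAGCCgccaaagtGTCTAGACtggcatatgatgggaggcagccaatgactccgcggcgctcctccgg
The Smad6 window holds the palindrome GTCTAGAC, in which GTCT and AGAC overlap no letters but adjoin, starting 4 bases before the start site. Of all 32851 RefSeq windows of 300 bases, 0.213% held this palindrome. The Smad6 window also had 1 match to the spaced arrangement described for Smad1/5 with Smad4, which is GNCGNC, then 5 bases of any kind, then GTCT. It reads GCCGCCAAAGTGTCT from position -15, and 0.667% of all windows had such a match. This match shares its last 4 letters with the palindrome and overlaps one of the 2 GGAGCC matches of that window. The Id3 window held 3 matches to GTCT and 1 to GGAGCC, at -187, and neither longer pattern. GTCT alone was in 88.0% and GGAGCC in 30.8% of all windows, so these shorter matches are common. None of the other members' windows examined here held the palindrome or the spaced pattern. GGCGCC, found in 11.9% of all windows, was in those of Bmpr2 and Tgfbr1. These are matches of letters only.

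Levels of the 10 genes spanned a wide range in these cells (the plot of level per length). CPM values were divided by the length of the union of annotated exons, so a gene with long, rarely used exons reads low on this scale. Eng was highest, at 526 ± 65.2 CPM per kilobase in EC-TRAIL KO and 537 ± 51.1 in Control libraries (SD, n = 5 each). Acvrl1 came next with 430 ± 51.7 CPM per kilobase in EC-TRAIL KO and 450 ± 17.7 in Control libraries (SD, n = 5 each), and the ranges of these 2 genes over the 10 libraries overlapped. Smad6, Id1 and Bmpr2 followed with means of 171, 130.0 and 117 CPM per kilobase in EC-TRAIL KO and 181, 142 and 137 in Control libraries, and each overlapped its neighbour in this order. Id3, Smad7 and Tgfbr2, at means of 75.7, 53.2 and 40.7 CPM per kilobase in EC-TRAIL KO and 81.1, 57.1 and 39.1 in Control libraries, formed a further run of overlapping neighbours. The 2 runs were not fully apart, as the highest Id3 library, at 94.5 CPM per kilobase, lay above the lowest of Id1, at 93.5. Tgfbr3 stood below all of these without overlap, at 27.0 ± 3.34 CPM per kilobase in EC-TRAIL KO and 30.2 ± 2.13 in Control libraries (SD, n = 5 each). Tgfbr1 was lowest and overlapped no other member, at 6.11 ± 0.376 and 5.79 ± 0.798 CPM per kilobase (SD, n = 5 each).

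**Figure D1:**
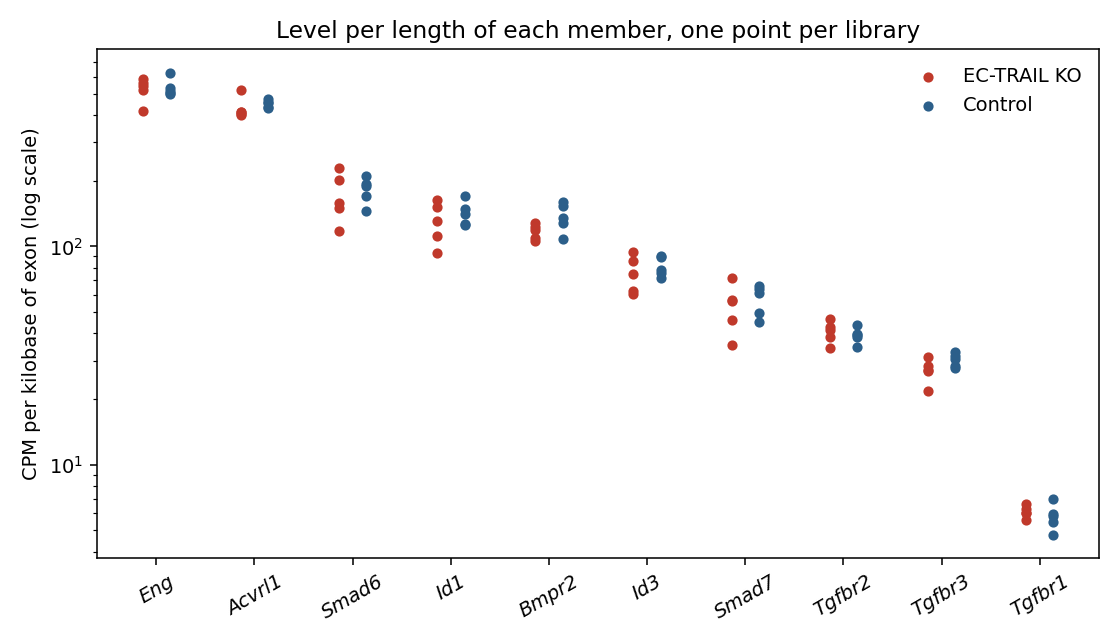
Level of each of the 10 genes as CPM per kilobase of exon on a log axis, with 1 point per library, EC-TRAIL KO in red to the left and Control in blue to the right. The genes run from Eng, at 416 to 625 over all libraries, to Tgfbr1, at 4.76 to 6.95, and the ranges of the 2 groups overlap in each gene.

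Per length, Acvrl1 and Eng thus far exceeded Tgfbr1 and Tgfbr3, while Bmpr2 exceeded Tgfbr2 by less. The ratio of the type I receptors, Acvrl1 over Tgfbr1, was 70.5 ± 7.80 in EC-TRAIL KO and 78.9 ± 11.9 in Control libraries (SD, n = 5 each). The ratio of the co-receptors, Eng over Tgfbr3, was 19.5 ± 1.43 in EC-TRAIL KO and 17.8 ± 1.81 in Control libraries. The type II receptors were closer, with Bmpr2 over Tgfbr2 at 2.92 ± 0.482 and 3.54 ± 0.770. Smad6 exceeded Smad7 by 3.31 ± 0.885 in EC-TRAIL KO and 3.20 ± 0.353 in Control libraries, and Id1 exceeded Id3 by 1.72 ± 0.203 and 1.75 ± 0.105. In each of the 5 ratios the ranges of the 2 groups overlapped.

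The question of the comparison is whether this pathway's RNA differs when endothelial cells carry the Cre that deletes Tnfsf10. None of the 10 genes passed the test, nor did Tnfsf10 itself (edgeR quasi-likelihood F-test, Benjamini-Hochberg adjustment over all genes tested, threshold 0.05), where 0.439% of all 17997 genes passed, 79 higher and 0 lower in EC-TRAIL KO. At an unadjusted p under 0.05 the count was 0 of 10 as well, where 5.13% of all genes lay there. The 2 groups overlapped in all 10 members. Of all genes tested, 1.38% had every EC-TRAIL KO library above every Control library and 0.261% had every one below. DESeq2 and limma-voom also called 0 of the 10. The log2 fold changes ran from -0.22 (Bmpr2) to 0.08 (Tgfbr1), with 8 below and 2 above 0 and a median of -0.091, beside a median of -0.0085 over all genes. The edgeR adjusted p was 0.997 for each. The 95% intervals of the fold change (EC-TRAIL KO over Control) reached down to 0.721 in Smad7 and up to 1.22 in Tgfbr1, so a change to 1.5-fold or more in either direction lay outside the interval of every member (the plot of fold changes).

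**Figure D2:**
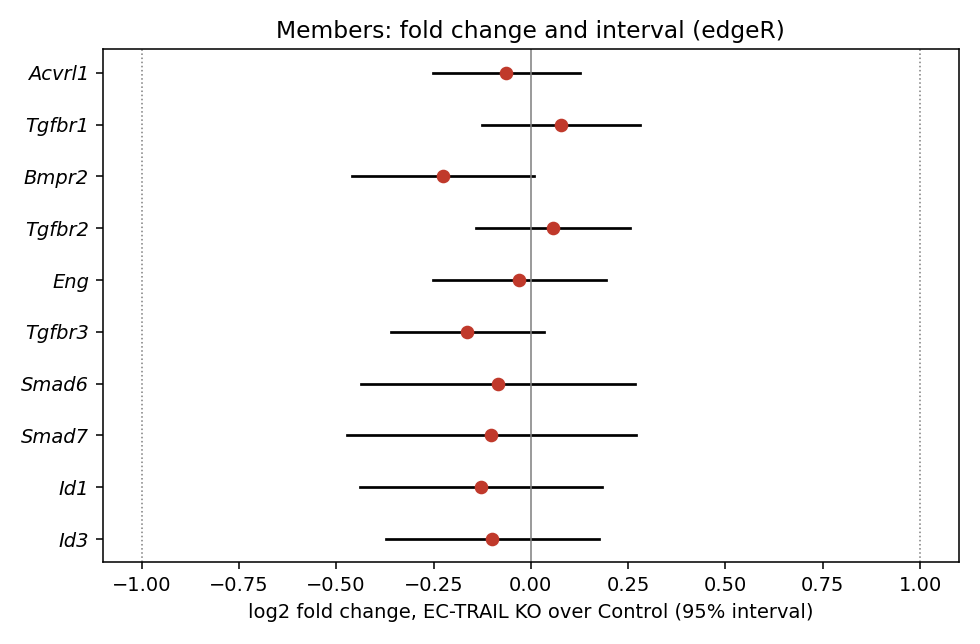
Log2 fold change of EC-TRAIL KO over Control for each member (points) with its 95% interval from the edgeR fit (bars), the dotted lines marking 2-fold changes at -1 and 1. All 10 intervals include 0 and all lie well inside the dotted lines, from a lower bound of -0.47 in Smad7 to an upper bound of 0.28 in Tgfbr1.

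Among the type I receptors, Acvrl1 (ENSMUSG00000000530, GRCm38 chromosome 15, 101128522 to 101145336, plus strand), which encodes ALK1, had 2228, 1760, 1722, 1710 and 1757 CPM in EC-TRAIL KO replicates 1 to 5, against 2015, 1832, 1938, 1950 and 1851 CPM in Control replicates 1 to 5. In EC-TRAIL KO, 4 libraries lay below every Control library and replicate 1 lay above every one. The log2 fold change was -0.06 (SE 0.0868), and the exact two-sided permutation test over the 252 assignments of libraries gave p = 0.405, where 0.00794 is the smallest it can give. Without EC-TRAIL KO replicate 1 the difference in mean log2 CPM was -0.14 with all 4 remaining libraries below the controls (exact two-sided permutation p = 0.0159, unadjusted), while the edgeR test again did not call the gene. That library was the only one of its group not below the controls, so leaving it out fixed this separation in advance. With any other library left out, the exact two-sided permutation p ran from 0.349 to 0.643. An antisense transcript, Gm16031, shares 127 exon bases with Acvrl1 on the opposite strand, and the strand setting of the counting is not given in the sources used here. Tgfbr1 (ENSMUSG00000007613, chromosome 4, 47353222 to 47414931, plus strand), the TGF-beta type I receptor, was sparse by comparison, with 41.1, 43.3, 39.4, 36.6 and 39.2 CPM in EC-TRAIL KO replicates 1 to 5, against 38.8, 35.7, 38.2, 31.1 and 45.4 CPM in Control replicates 1 to 5. All EC-TRAIL KO libraries lay within the Control range, and the log2 fold change was 0.08 (SE 0.0937; exact two-sided permutation p = 0.413). With 1 library left out it ran from 0.015, without Control replicate 4, to 0.15, without Control replicate 5, and was 0.047 without EC-TRAIL KO replicate 2.

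Of the type II receptors, Bmpr2 (ENSMUSG00000067336, chromosome 1, 59763400 to 59879014, plus strand) had the largest difference among the members. It had 2296, 1910, 2217, 1969 and 2133 CPM in EC-TRAIL KO replicates 1 to 5, against 2415, 1952, 2756, 2311 and 2864 CPM in Control replicates 1 to 5. All 5 EC-TRAIL KO libraries lay below the Control mean of 2460 CPM, but Control replicate 2 was lower than 4 of them, so the groups overlapped. The fold change was 0.856 (log2 -0.22, SE 0.108, 95% interval 0.728 to 1.01), with an unadjusted edgeR p of 0.0583 and an exact two-sided permutation p of 0.0952. Without Control replicate 2 the difference in mean log2 CPM was -0.30 and the groups no longer overlapped (exact two-sided permutation p = 0.00794, unadjusted and the smallest possible with 5 against 4 libraries). It was the only Control library below any EC-TRAIL KO library, so leaving it out fixed this separation and its p in advance. With any other library left out, the exact two-sided permutation p ran from 0.0873 to 0.183. The adjusted p of Bmpr2 ran from 0.461 to 1.00 over all 17 alternative fits (edgeR, DESeq2 and limma-voom), and was 0.608 in edgeR without Control replicate 2. Tgfbr2 (ENSMUSG00000032440, chromosome 9, 116084293 to 116175360, minus strand), the TGF-beta type II receptor, had 339, 351, 315, 382 and 281 CPM in EC-TRAIL KO replicates 1 to 5, against 323, 326, 316, 356 and 282 CPM in Control replicates 1 to 5. EC-TRAIL KO held the lowest and the highest library and the other 3 lay within the Control range, with a log2 fold change of 0.06 (SE 0.0905; exact two-sided permutation p = 0.563). It was 0.0032 without EC-TRAIL KO replicate 4, 0.014 without Control replicate 5, 0.097 without Control replicate 4 and 0.11 without EC-TRAIL KO replicate 5.

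Of the co-receptors, Eng (ENSMUSG00000026814, chromosome 2, 32646595 to 32682669, plus strand), encoding endoglin, had 2358, 1684, 2118, 2203 and 2279 CPM in EC-TRAIL KO replicates 1 to 5, against 2050, 2031, 2532, 2158 and 2090 CPM in Control replicates 1 to 5. The lowest value was that of EC-TRAIL KO replicate 2 and the highest that of Control replicate 3, with the other 8 libraries between 2031 and 2358 CPM. The log2 fold change of -0.03 (SE 0.103; exact two-sided permutation p = 0.778) became 0.04 without EC-TRAIL KO replicate 2 and 0.03 without Control replicate 3. The gene shares 61 exon bases with Fpgs on the opposite strand. Tgfbr3 (ENSMUSG00000029287, chromosome 5, 107106570 to 107289629, minus strand), encoding betaglycan, which presents TGF-beta2 to its receptors, had 176, 143, 185, 177 and 203 CPM in EC-TRAIL KO replicates 1 to 5, against 207, 182, 199, 215 and 186 CPM in Control replicates 1 to 5. In EC-TRAIL KO, 3 libraries lay below every Control library. The log2 fold change was -0.16 (SE 0.0907; unadjusted edgeR p = 0.0973; exact two-sided permutation p = 0.0794). A same-strand annotation of unproven status, Gm43422, shares 297 of its exon bases. Without EC-TRAIL KO replicate 5, the highest of its group, the difference in mean log2 CPM was -0.22 (exact two-sided permutation p = 0.0317, unadjusted). With any other library left out, the exact two-sided permutation p ran from 0.0714 to 0.183. Tgfbr3 is also expressed by fibroblasts and pericytes, and EC-TRAIL KO replicate 2, its lowest library, had the lowest sums of their markers, 471 and 365 CPM. The part of those cells in this difference was not tested, and without that library the log2 fold change was -0.10.

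**Figure D3:**
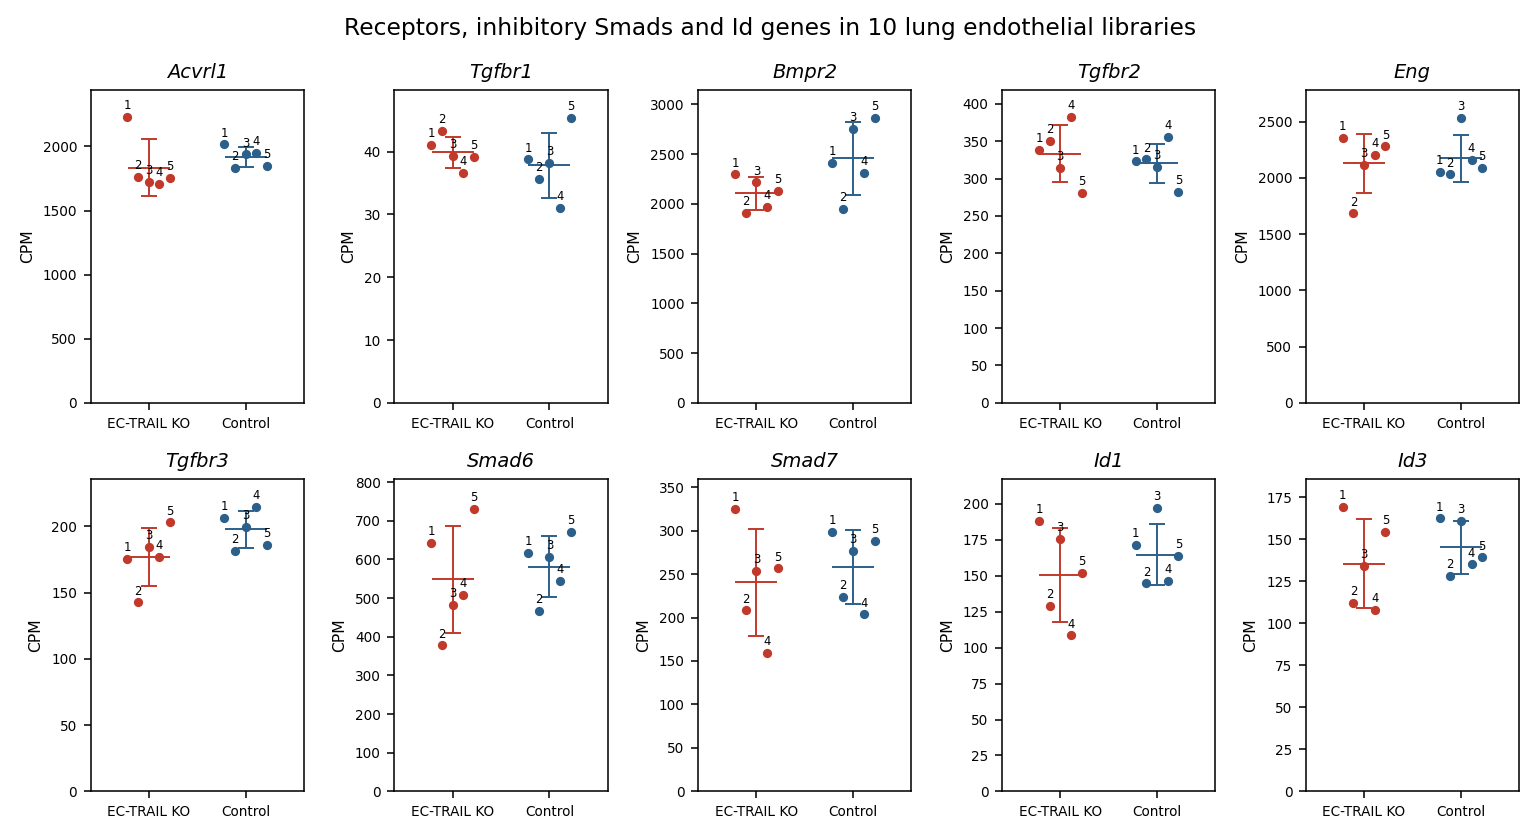
CPM of the 10 genes in each library, EC-TRAIL KO (red, left) and Control (blue, right), with the replicate number beside each point, the bar at the group mean and whiskers of 1 SD (n = 5 each). The groups overlap in every panel, and in Smad7, Id1 and Id3 the library labelled EC-TRAIL KO replicate 4 is the lowest of all 10, at 159, 109 and 108 CPM.

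The inhibitory Smads and the Id genes varied more between EC-TRAIL KO libraries than the receptors did, while in Control the ranges overlapped. The coefficient of variation in that group was 25.4% for Smad6, 25.6% for Smad7, 21.8% for Id1 and 19.5% for Id3, against 13.5%, 16.3%, 13.0% and 10.8% in Control. The 6 receptor and co-receptor genes had 6.15% to 12.4% in EC-TRAIL KO and 3.94% to 14.8% in Control. The difference in spread between the groups was not tested.

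Smad6 (ENSMUSG00000036867, chromosome 9, 63953076 to 64022059, minus strand), the inhibitor that acts mainly on BMP receptors, had 643, 378, 482, 507 and 731 CPM in EC-TRAIL KO replicates 1 to 5, against 616, 467, 607, 545 and 672 CPM in Control replicates 1 to 5. EC-TRAIL KO held both the lowest and the highest library. The log2 fold change was -0.08 (SE 0.162; exact two-sided permutation p = 0.587) and turned to 0.02 without EC-TRAIL KO replicate 2. Smad7 (ENSMUSG00000025880, chromosome 18), the inhibitor of both branches, had 325, 208, 254, 159 and 257 CPM in EC-TRAIL KO replicates 1 to 5, against 298, 223, 277, 204 and 289 CPM in Control replicates 1 to 5. Its extremes were again both in EC-TRAIL KO, 2.04-fold apart. The log2 fold change was -0.10 (SE 0.171; exact two-sided permutation p = 0.563). It was -0.054 without EC-TRAIL KO replicate 2 and 0.02 without EC-TRAIL KO replicate 4.

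Id1 (ENSMUSG00000042745, chromosome 2, 152736251 to 152737410, plus strand) encodes an inhibitor of basic helix-loop-helix transcription factors. It had 188, 129, 176, 109 and 152 CPM in EC-TRAIL KO replicates 1 to 5, against 172, 145, 197, 147 and 164 CPM in Control replicates 1 to 5. EC-TRAIL KO replicates 2 and 4 lay below every Control library and the other 3 within the Control range, for a log2 fold change of -0.13 (SE 0.143; exact two-sided permutation p = 0.429). It was -0.22 without EC-TRAIL KO replicate 1, -0.077 without replicate 2, -0.030 without replicate 4 and -0.057 without Control replicate 3. Id3 (ENSMUSG00000007872, chromosome 4, 136143497 to 136145755, plus strand), a second gene of that family, had 169, 112, 134, 108 and 154 CPM in EC-TRAIL KO replicates 1 to 5, against 163, 128, 161, 135 and 139 CPM in Control replicates 1 to 5. The same replicates 2 and 4 lay below every Control library and replicate 1 above every one, for a log2 fold change of -0.099 (SE 0.126; exact two-sided permutation p = 0.460). It was -0.19 without EC-TRAIL KO replicate 1, -0.15 without replicate 5, -0.038 without replicate 2 and -0.027 without replicate 4, and -0.055 and -0.060 without Control replicates 1 and 3.

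Across the 10 libraries Id1, Id3 and Smad7 varied together (the map of correlations). Pearson's r of log2 CPM was 0.904 for Smad7 with Id1, 0.884 for Smad7 with Id3 and 0.875 for Id1 with Id3, with permutation p of 0.00052, 0.00051 and 0.00094 and, adjusted over the 45 pairs of members, 0.0117, 0.0117 and 0.0141. These permutations treat the 10 libraries as independent, but libraries of the same number in the 2 groups may not be. In Smad7, replicate 1 was the highest and replicate 4 the lowest of both groups. If same-numbered libraries belong together, these p are too small. Spearman's rho was 0.794, 0.891 and 0.818 (permutation p = 0.00888, 0.00125 and 0.00582), and no pair passed the adjustment by rho, the smallest adjusted p being 0.0562 for Smad7 with Id3. Without the 2 libraries farthest from the median of the first gene of each pair, r was 0.767, 0.767 and 0.792. With values centred on their group mean, r was 0.901, 0.879 and 0.864. There the libraries were shuffled only within their group, and the permutation p was 0.00237, 0.0046 and 0.0103, or 0.103 for each after adjustment. The centring and the narrower shuffling were changed together, so the rise in p is not a measure of the centring alone. Smad6 followed Id3 (r = 0.766, rho = 0.745, adjusted permutation p = 0.101 and 0.154) more than Id1 (r = 0.501, rho = 0.467, adjusted permutation p = 0.240 and 0.350), and neither pair passed; the difference between these 2 correlations was not tested.

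**Figure D4:**
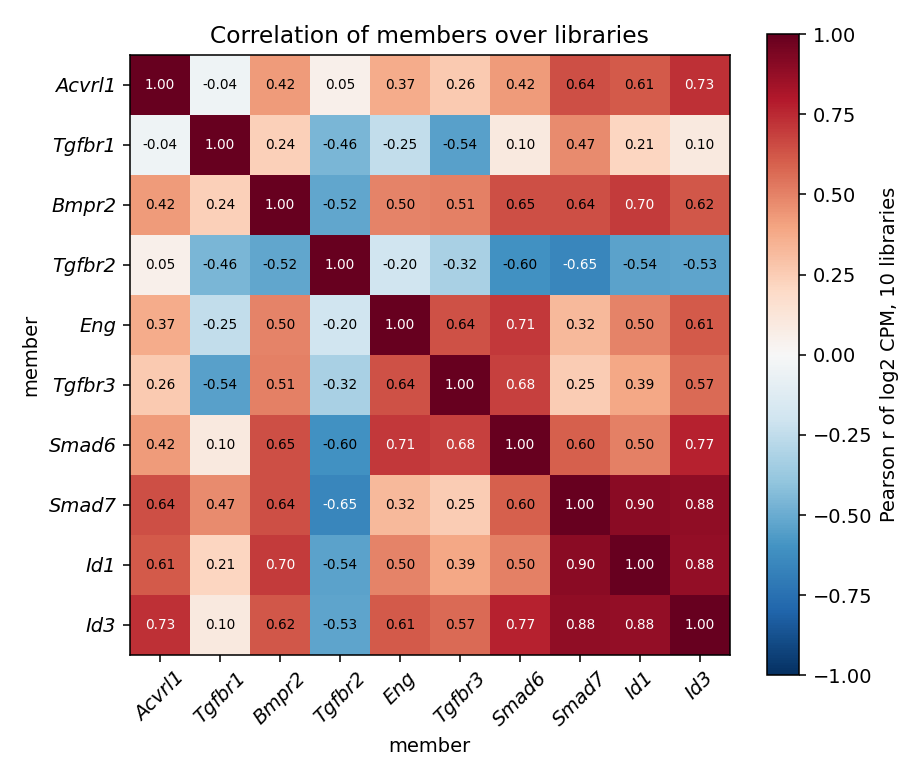
Pearson's r of log2 CPM between each pair of the 10 genes over the 10 libraries, red for positive and blue for negative, with the value in each cell. The block of Smad7, Id1 and Id3 at the lower right holds the highest values, 0.875 to 0.904, and the row of Tgfbr2 is negative with 8 of the 9 other genes.

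Acvrl1 had r = 0.727 with Id3 (rho = 0.770, adjusted permutation p = 0.151 and 0.148, r = 0.536 without the 2 farthest libraries). Bmpr2 had r = 0.700 with Id1 (rho = 0.685, adjusted permutation p = 0.152 and 0.238, r = 0.750 without the 2 farthest libraries). Tgfbr2 ran the other way, with r below 0 in 8 of its 9 pairs, the lowest being -0.652 with Smad7 (rho = -0.564, adjusted permutation p = 0.163 and 0.305, r = -0.520 without the 2 farthest libraries). None of these pairs passed. With values centred on their group mean and libraries shuffled within groups, r was 0.703 for Acvrl1 with Id3 and 0.675 for Bmpr2 with Id1. The permutation p was 0.0129 and 0.0127, and 0.103 for both after adjustment. The adjustment gave the same 0.103 to Bmpr2 with Smad6 and to the pairs among Smad7, Id1 and Id3. The unadjusted p of those last pairs was smaller, so the tie does not put the pairs on a par. Of all 45 pairs, 34 had r above 0 and 11 below, and the 10 values in each share libraries, depth and scaling factors.

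The genes whose pattern was most like that of Id1, among 9257 protein-coding genes with a mean of at least 10 CPM, were Socs3 (r = 0.957, rho = 0.891), Ccdc130 (r = 0.951, rho = 0.939) and Jun (r = 0.934, rho = 0.903), over 10 libraries. They were picked as the highest of all, so no p is given. Socs3, the feedback inhibitor of cytokine signalling, ran from 463 to 723 CPM in EC-TRAIL KO and from 587 to 750 CPM in Control libraries, and Jun, an immediate early transcription factor, from 1805 to 2670 CPM and from 2266 to 2705 CPM. Those most like Acvrl1 were Cdc42ep1 (r = 0.913, rho = 0.830), Tgfbrap1 (r = 0.912, rho = 0.867), which encodes a protein that binds TGF-beta receptors, and Fam171a1 (r = 0.890, rho = 0.952). None of these 6 genes passed the edgeR test between the groups (adjusted p = 0.997 for each).

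The rest of the pathway was read from 7 lists of 65 genes, of which 60 were tested and 0 passed the edgeR test in either direction, where 0.439% of all genes passed. All 60 log2 fold changes were within 0.5 of 0, as were 17071 of all 17997 genes tested. Of the 60, 26 were above and 34 below 0, with a median of -0.03 (the plot of pathway lists). At an unadjusted p under 0.05 there were 3 genes, Bmp5, Pmepa1 and Id2, where 5.13% of all genes lay there. DESeq2 called 1, Pmepa1, and limma-voom 0. The ligands Bmp10 and Gdf2, which encode BMP10 and BMP9, were too low to be tested, with at most 2 and 5 counts in any EC-TRAIL KO library and 4 and 5 in any Control library.

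**Figure D5:**
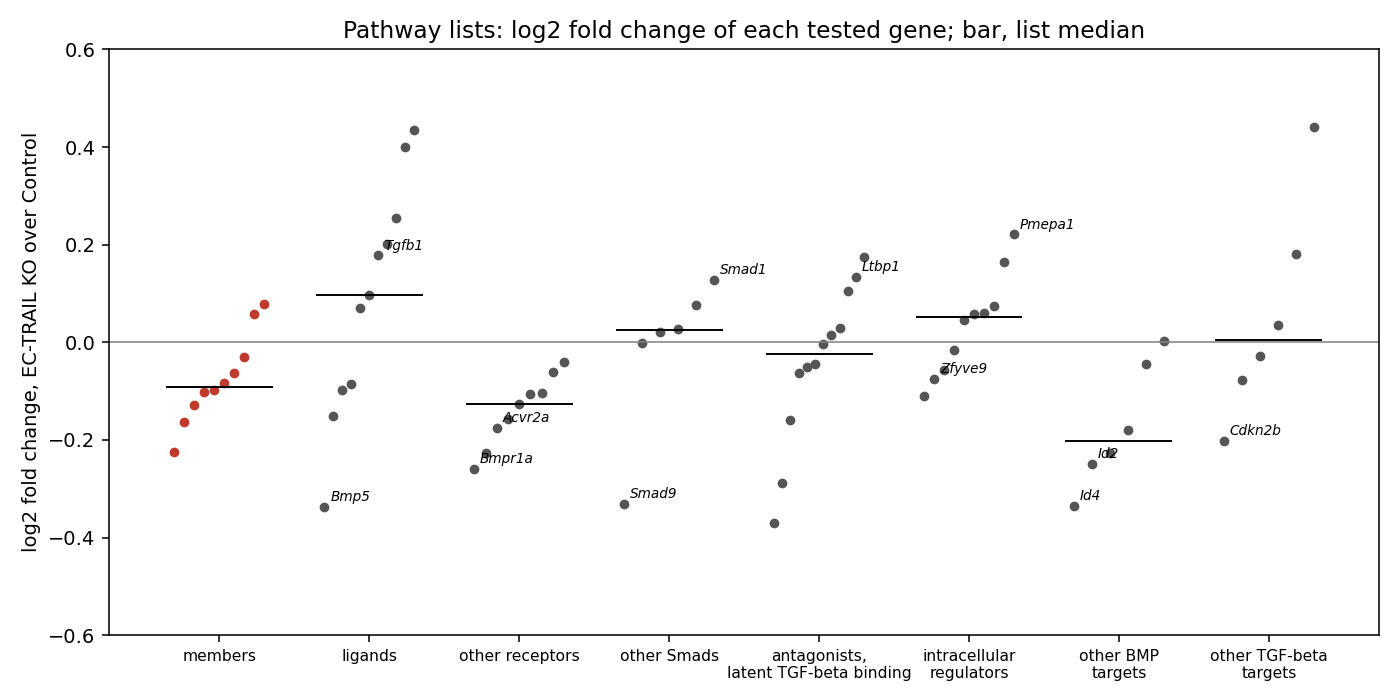
Log2 fold change of EC-TRAIL KO over Control for each tested gene of the pathway, by list, with the 10 members in red at the left, the list median as a bar and the genes described in the text named. Every point lies between -0.37 and 0.44, and all 9 other receptors lie below 0.

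Among 11 tested ligands, 7 had a log2 fold change above 0 and 4 below, with a median of 0.096. Bmp5 had 21.4 ± 5.21 CPM in EC-TRAIL KO and 27.0 ± 3.64 CPM in Control libraries (SD, n = 5 each; log2 fold change -0.34, edgeR adjusted p = 0.961). Tgfb1, a ligand of the TGF-beta branch, had 181 ± 22.4 and 160 ± 16.3 CPM (SD, n = 5 each; log2 fold change 0.18, and 0.11 without EC-TRAIL KO replicate 2; edgeR adjusted p = 0.997).

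All 9 tested other receptors and co-receptors had log2 fold changes below 0, from -0.26 to -0.04, and none passed. The median of -0.13 stands beside 9465 of 17997 genes below 0. The BMP type I receptor Bmpr1a (ALK3) had 32.0, 24.6, 38.3, 41.2 and 35.1 CPM in EC-TRAIL KO replicates 1 to 5, against 36.6, 42.1, 39.3, 41.4 and 45.5 CPM in Control replicates 1 to 5 (log2 fold change -0.26, SE 0.122; edgeR adjusted p = 0.980). The groups overlapped, and EC-TRAIL KO replicate 2 was the lowest; without it the log2 fold change was -0.16. The activin type II receptor Acvr2a had 52.7 ± 3.73 CPM in EC-TRAIL KO and 59.5 ± 6.51 CPM in Control libraries (SD, n = 5 each; log2 fold change -0.18, edgeR adjusted p = 0.993).

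Of the 6 Smads that transmit the signal, 4 were above and 2 below 0, and none passed. Smad9 (SMAD8), of the BMP branch, had 15.97 ± 3.96 CPM in EC-TRAIL KO and 20.1 ± 2.64 CPM in Control libraries (SD, n = 5 each; log2 fold change -0.33, 95% interval -0.68 to 0.02, edgeR adjusted p = 0.997). Smad1 had 58.5 ± 7.51 and 53.5 ± 4.17 CPM (SD, n = 5 each; log2 fold change 0.13, and 0.062 without EC-TRAIL KO replicate 2; edgeR adjusted p = 0.997). Of 12 tested extracellular antagonists and latent TGF-beta binding proteins, 5 were above and 7 below 0. Ltbp1, which tethers latent TGF-beta, had 159 ± 27.9 CPM in EC-TRAIL KO and 145 ± 10.8 CPM in Control libraries (SD, n = 5 each; log2 fold change 0.13, and 0.062 without EC-TRAIL KO replicate 2; edgeR adjusted p = 0.997).

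Pmepa1, a TGF-beta-induced gene whose product dampens the pathway, had the smallest p of the 60. It had 33.0, 33.3, 31.5, 35.04 and 32.5 CPM in EC-TRAIL KO replicates 1 to 5, against 26.5, 27.9, 29.1, 28.4 and 30.02 CPM in Control replicates 1 to 5. Every EC-TRAIL KO library lay above every Control library, as in 1.38% of all genes tested, and it was the single gene of the 60 with separate groups. The fold change was 1.17 (log2 0.22, SE 0.0614, 95% interval 1.06 to 1.28). It did not pass the edgeR test (adjusted p = 0.285, unadjusted p = 0.00359) and did pass DESeq2 (adjusted p = 0.0451), within a range of adjusted p of 0.0451 to 0.847 over the 17 alternatives. Of the 10 tested intracellular regulators, 6 were above and 4 below 0, and the other gene named there, Zfyve9, an adaptor that brings Smads to the receptor, had 60.7 ± 4.00 CPM in EC-TRAIL KO and 64.0 ± 5.16 CPM in Control libraries (SD, n = 5 each; log2 fold change -0.07).

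Of the 6 other BMP targets, 5 had log2 fold changes below 0, with a median of -0.20. Id2 had 52.3, 36.1, 37.7, 40.8 and 37.2 CPM in EC-TRAIL KO replicates 1 to 5, against 50.03, 48.8, 41.5, 48.2 and 54.0 CPM in Control replicates 1 to 5. In EC-TRAIL KO, 4 libraries lay below every Control library, and replicate 1 lay among the controls (log2 fold change -0.25, SE 0.107; unadjusted p = 0.0380, edgeR adjusted p = 0.912). Id4 was low, with 7.22 ± 2.38 CPM in EC-TRAIL KO and 9.12 ± 1.22 CPM in Control libraries (SD, n = 5 each; log2 fold change -0.34, and -0.21 without EC-TRAIL KO replicate 2; edgeR adjusted p = 0.997). Of the 6 other TGF-beta targets, 3 were above and 3 below 0. Cdkn2b, a cell cycle inhibitor gene, had 24.3 ± 6.72 CPM in EC-TRAIL KO and 27.9 ± 4.83 CPM in Control libraries (SD, n = 5 each; log2 fold change -0.20, and -0.12 without EC-TRAIL KO replicate 2; edgeR adjusted p = 0.997).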

How the data were processed

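STAR 2.7.1a, RSEM 1.2.28 and GRCm38 are named in the submitters' processing notes, with no further settings. The authors deposited unscaled expected counts per gene. How strand was handled in counting, and which annotation was used, is not given here. Columns were matched by title, and identifiers without version to GENCODE M21, in which 55144 of 55385 matched; symbols, coordinates and exon lengths come from it. Counts were rounded, filtered with filterByExpr (minimum count 10) and scaled by TMM, and EC-TRAIL KO was compared with Control by edgeR 4.0.16 in R 4.3.3 (quasi-likelihood F-test, group as the only term, Benjamini-Hochberg over 17997 genes). Fit and correlations were tested on simulated data. SE is the log2 fold change over the square root of F. Log2 CPM used a prior count of 2, and correlations 100000 permutations. No pair of libraries agreed within sampling noise (chi-square over degrees of freedom at least 20.1). Alternatives used limma 3.58.1, DESeq2 1.42.0, other scalings and filters, the replicate block and left-out libraries.

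Named genes are the 10 members, Tnfsf10, the 2 genes of smallest p in each pathway list (2 of these genes are not reported here) and the 3 most like Id1 and Acvrl1; Bmp10, Gdf2 and Lyz2 were added after their values were seen. Members and lists were chosen with earlier results of these data known.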

Additional observations from a re-analysis of the deposited data

Results flagged for a closer look

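Among 50 sets of 5 libraries (25 genes in 2 groups), 2 held a library far from the others, where chance flags about 1 in 20. In Acvrl1 the library labelled EC-TRAIL KO replicate 1 had 2228 CPM, and the next highest of its group had 1760 CPM, a gap of 0.902 of the group's range. In Eng, Control replicate 3 had 2532 CPM and the next highest Control library 2158 CPM, a gap of 0.746 of the range.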

How the results depend on the processing

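No member was called in any of the 17 alternatives of the edgeR comparison. Of 170 member fold changes under them, 166 kept their direction and 4 turned. Eng was at 0.044 without EC-TRAIL KO replicate 2 and 0.03 without Control replicate 3, Smad6 at 0.024 without EC-TRAIL KO replicate 2, and Smad7 at 0.015 without EC-TRAIL KO replicate 4. With 1 library left out, Eng ran from -0.069 to 0.044, Smad6 from -0.21 to 0.024 and Smad7 from -0.23 to 0.015. The differences in mean log2 CPM turned in the same 4 cases and ran from -0.074 to 0.048 in Eng (0.02 without Control replicate 3), from -0.22 to 0.014 in Smad6 and from -0.24 to 0.013 in Smad7. The pathway lists had 1 call with DESeq2 and 0 otherwise. Over all genes, higher and lower calls numbered 79 and 0, against 208 and 3 with DESeq2, 141 and 2 without the low-count filter, and 2 higher with library size only or with limma-voom. They numbered 2 to 154 higher and 0 to 1 lower with 1 library left out, with 154 without EC-TRAIL KO replicate 1 and 2 without any 1 Control library or EC-TRAIL KO replicate 3 or 4; the cause was not tested. Centring on group means, with libraries shuffled only within their group, left 0 of 3 correlated pairs past the threshold, although their r stayed at 0.864 to 0.901. With the replicate number as a block, 146 genes were higher and 3 lower, and the block called none of the members (Bmpr2 -0.22, SE 0.0803, adjusted p 0.461). The edgeR adjusted p of the members ran from 0.461 in Bmpr2 to 0.949 in Eng. The SE of every member was smaller with the block. It went from 0.171 to 0.0717 in Smad7, from 0.162 to 0.0822 in Smad6, from 0.0905 to 0.0543 in Tgfbr2 and from 0.103 to 0.0908 in Eng. The permutations behind the correlations keep no such block. Deviations of same-numbered libraries correlated above 0.1 in 4 of 5 pairs and at 0.0679 in number 2, and 4 of 5 EC-TRAIL KO libraries correlated best with their own number, a hint from the data and not from the labels. Every member had at least 1180 counts in every library. Control libraries were mostly deeper, and the part of depth in the results was not tested.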
